A study of Mus musculus with 6 samples.

Results

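The interleukin-6 (IL-6) family is a group of small secreted proteins that signal through a shared receptor chain, gp130, encoded by *Il6st*. Its 10 members examined here were 5 ligand genes (*Il6*, *Il11*, *Lif*, *Clcf1* and *Ctf1*), 4 receptor genes (*Il6st*, *Il6ra*, *Lifr* and *Osmr*) and the feedback inhibitor *Socs3*, out of 20788 genes listed in at least 1 library. They were picked by gene name, with their difference between the groups already known from the same libraries. All their values are therefore given as a description and without p-values. The fit across all genes described below included them, and whether it called a member is likewise a description. All 10 were listed, and 9 passed the filter of a mean of 0.1 FPKM (fragments per kilobase of transcript, scaled to the number mapped) over the 6 libraries. *Il6ra*, with a mean of 0.0913 FPKM, did not.

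The libraries came from cultured subclones of B16, a melanoma line of C57BL/6 mice. Tyr-L cells have low tyrosinase activity and Tyr-H cells high tyrosinase activity. Tyrosinase is the enzyme that starts melanin synthesis from tyrosine. Each group had 3 libraries of mRNA from cells kept in the same low-glucose medium with serum, and the labels name no treatment. The subclones had been grown from single colonies, and whether separate cultures gave rise to the 3 libraries of each group is not given in the sources used here. SDs, standard errors and p-values then measure only the spread between these libraries, which may be technical. How many subclones each group stands for is likewise not given, so tyrosinase activity and whatever else differs between the picked clones cannot be told apart. In cultures measured in bulk, fewer cells making an mRNA and less of it per cell cannot be told apart either.

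Each ligand of the family is a four-helix-bundle protein that joins receptor chains on the surface of a responding cell. IL-6 first binds the IL-6 receptor (*Il6ra*) and interleukin-11 binds its own alpha chain, and each complex then pairs gp130 chains. Leukemia inhibitory factor (*Lif*), cardiotrophin-1 (*Ctf1*) and cardiotrophin-like cytokine factor 1 (*Clcf1*) join gp130 to the LIF receptor (*Lifr*), while oncostatin M uses gp130 with the oncostatin M receptor (*Osmr*). Janus kinases bound to these chains then activate the transcription factor STAT3, which induces *Socs3*, whose protein binds gp130 and the kinases and shuts the signal off. Melanoma cells of several kinds are known to release IL-6 family cytokines, which act on neighbouring macrophages and fibroblasts.

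All 5 ligand genes were higher in Tyr-H than in Tyr-L cells with no overlap between the groups, as were 20.2% of all tested genes. The receptor genes *Il6st*, *Lifr* and *Osmr* and the inhibitor *Socs3* differed by less than 0.3 on the log2 scale in the values as deposited. The sequences just upstream of the transcription start are shown first for 3 of the ligands and for *Socs3*, because they were the members whose windows held an AP-1, STAT or C/EBP motif. They are from RefSeq (GRCm38.p6), whose promoter table held 11 windows for 9 of the members and none for *Clcf1*. Each window covered the 250 bases before a start, and motifs were searched in the whole window. The printed sequence is its longest stretch outside the exons of GENCODE M21. The windows of *Il6ra* and *Osmr* lay wholly in annotated exons and are part of the counts below. Capitals mark the letters TGANTCA (AP-1), TTCNNNGAA (STAT) and TTGCNNAA (C/EBP) on either strand. The sequences are written 5′ to 3′ on the strand of the gene.
*Il6*, chr5:30012864-30013113, plus strand: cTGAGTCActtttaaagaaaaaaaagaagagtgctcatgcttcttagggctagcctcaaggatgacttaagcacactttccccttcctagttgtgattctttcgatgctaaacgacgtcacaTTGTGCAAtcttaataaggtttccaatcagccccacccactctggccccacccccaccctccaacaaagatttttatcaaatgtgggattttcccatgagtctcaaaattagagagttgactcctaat
*Il11*, chr7:4778142-4778391, minus strand: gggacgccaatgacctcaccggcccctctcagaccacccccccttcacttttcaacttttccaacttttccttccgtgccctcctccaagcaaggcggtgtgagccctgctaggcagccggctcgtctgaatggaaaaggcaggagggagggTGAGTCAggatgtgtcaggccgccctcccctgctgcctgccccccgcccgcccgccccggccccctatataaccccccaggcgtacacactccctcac
*Lif*, chr11:4257318-4257556, plus strand: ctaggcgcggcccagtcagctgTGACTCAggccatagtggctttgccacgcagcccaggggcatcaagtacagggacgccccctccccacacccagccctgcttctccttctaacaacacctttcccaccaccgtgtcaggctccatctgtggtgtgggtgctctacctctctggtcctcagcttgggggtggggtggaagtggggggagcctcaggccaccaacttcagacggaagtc
*Socs3*, chr11:117969452-117969616, minus strand: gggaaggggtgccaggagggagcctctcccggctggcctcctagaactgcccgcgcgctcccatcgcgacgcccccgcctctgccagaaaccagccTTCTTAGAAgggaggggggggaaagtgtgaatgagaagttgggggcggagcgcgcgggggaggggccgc

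The AP-1 letters were in 3 of the 11 windows, those of *Il6*, *Il11* and *Lif*, and in 6.75% of all 32851 promoter windows of this length. Counted back from the start, the match began at base -249 in *Il6*, -98 in *Il11* and -228 in *Lif*. The STAT letters were in the *Socs3* window only, from base -154 to -146, and in 7.02% of all windows. The C/EBP letters were in the *Il6* window only, from -128 to -121, and in 9.56% of all windows. A looser NF-kappaB pattern of 10 letters, 5 of them free, was in 9 of the 11 windows and in 45.8% of all windows, and in *Il6* it began at -44 as GGGATTTTCC. None of the AP-1, STAT or C/EBP patterns was found for *Ctf1*, *Il6st*, *Il6ra*, *Osmr* or *Lifr*. These are matches of letters in a reference sequence, and binding was not measured.

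The files hold FPKM and no counts, and the spacing of their lowest values put the depth at about 18800000 to 21400000 fragments per library. Pairs of libraries of the same group differed by a median of 0.0953 to 0.114 on the log2 scale and pairs across groups by 0.315 to 0.371. *Tyr* itself, which encodes tyrosinase, was at 9.52 to 10.7 FPKM in Tyr-L and 19.7 to 23.8 FPKM in Tyr-H libraries, as the labels have it. With limma on log2(FPKM + 0.1), 425 of 14336 tested genes had higher calls in Tyr-H cells and 829 had lower calls. A call needed an adjusted p of at most 0.05 and a fold change of at least 2. The direction of small differences depended on the scaling. On the deposited scale the median log2 fold change over these genes was -0.15, against -0.01 after median ratio scaling, which gave 538 higher and 588 lower calls, and -0.02 after quantile normalization, which gave 599 and 508. All 7 melanocyte markers were detected, with a summed level of 7343 to 7660 FPKM in Tyr-L and 5438 to 5958 FPKM in Tyr-H libraries, and the part of this difference in the values below was not tested. The sum was carried by *Tyrp1*, *Dct*, *Pmel* and *Mlana*. All markers but *Tyr* were lower in Tyr-H libraries without overlap, and *Mitf*, the main regulator of melanocyte genes, was called lower, at 86.6 to 98.2 FPKM in Tyr-L against 23.7 to 26.8 FPKM in Tyr-H libraries (log2 fold change -1.85 ± 0.06 SE, limma adjusted p = 1e-07). Of 10 leukocyte markers 7 were never listed, among them *Ptprc*, *Adgre1* and *Csf1r*, and the 10 together summed to 0.444 to 0.547 FPKM in Tyr-L and 0.341 to 0.566 FPKM in Tyr-H libraries. The 7 fibroblast markers summed to 2.26 to 2.52 FPKM in Tyr-L and 2.06 to 2.38 FPKM in Tyr-H libraries, with *Thy1* never listed and *Pdgfrb*, at 1.01 to 1.53 FPKM, the largest part. The collagen genes differed in opposite directions without overlap, *Col1a1* with 0.296 to 0.344 FPKM in Tyr-L against 0.511 to 0.708 FPKM in Tyr-H libraries (limma adjusted p = 0.017) and *Col1a2* with 0.429 to 0.444 against 0.148 to 0.228 FPKM (limma adjusted p = 0.0087), and their part in the results was not tested. The 4 endothelial markers stayed under 0.06 FPKM in sum in every library, and the 4 keratinocyte markers under 0.04 FPKM.

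*Lif*, whose product keeps mouse embryonic stem cells undifferentiated and acts on many other cells, had the highest level of the ligand genes in both groups. Tyr-L libraries 1 to 3 held 0.754, 0.582 and 0.867 FPKM, and Tyr-H libraries 1 to 3 held 3.41, 3.45 and 3.77 FPKM. The lowest Tyr-H library thus stood well above the highest Tyr-L library, and the spread within each group was small beside the gap. The means were 0.734 ± 0.143 and 3.54 ± 0.198 FPKM (SD, n = 3 each), a ratio of 4.83 and a log2 fold change of 2.14 ± 0.15 (SE). *Lif* lies on chromosome 11 from 4257557 to 4272514 (GRCm38), and its values rest on about 49.2 to 65.6 fragments per Tyr-L library and 270.7 to 297.1 per Tyr-H library, counted on its longest annotated transcript.

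*Il11* encodes interleukin-11, a cytokine that acts on stromal and epithelial cells. Tyr-L libraries 1 to 3 held 0.284, 0.0861 and 0.174 FPKM, and Tyr-H libraries 1 to 3 held 1.03, 1.48 and 1.63 FPKM. Tyr-L library 2 was the lowest and Tyr-H library 1 the lowest of its group, and the groups did not overlap. The means were 0.181 ± 0.0994 and 1.38 ± 0.313 FPKM (SD, n = 3 each), a ratio of 7.60 and a log2 fold change of 2.43 ± 0.30 (SE). The gene lies on chromosome 7 from 4772373 to 4782859, and the values stand for about 3.5 to 10.8 fragments per Tyr-L library and 39.4 to 61.9 per Tyr-H library.

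*Clcf1* encodes a ligand that acts on neurons and B cells. Its levels were 0.0824, 0.181 and 0.149 FPKM over Tyr-L libraries 1 to 3 and 0.675, 0.678 and 0.820 FPKM over Tyr-H libraries 1 to 3, again without overlap. The means were 0.138 ± 0.0505 and 0.724 ± 0.0832 FPKM (SD, n = 3 each), a ratio of 5.27 and a log2 fold change of 1.81 ± 0.25 (SE). The annotation places a further protein-coding gene, *AC109138.7*, over its exons on the same strand of chromosome 19, and no library listed that gene, so reads from a joint transcript could count for *Clcf1*. The gene spans 4214238 to 4223490, and its values stand for about 5.7 to 13.5 fragments per Tyr-L library and 47.2 to 56.5 per Tyr-H library. When 1 FPKM was added the log2 fold change was 0.60 and no longer called.

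*Ctf1*, whose product was first described for its effect on heart muscle cells, was close to undetected in Tyr-L cells. It was listed in Tyr-L library 2 alone, at 0.0738 FPKM, which is about 2.1 fragments or fewer, and was absent from the tables of Tyr-L libraries 1 and 3. Tyr-H libraries 1 to 3 held 0.857, 0.642 and 0.742 FPKM, or 18.6 to 22.8 fragments. All Tyr-H libraries were therefore far above every Tyr-L library. The log2 fold change of 2.81 ± 0.31 (SE) is the largest among the members, but with so little signal in Tyr-L cells it depended on the pseudocount, with 5.21 when 0.01 FPKM was added and 0.77 when 1 FPKM was added. *Ctf1* (chromosome 7, 127712736 to 127718192) shares exon sequence with *Ctf2* on the opposite strand, which no library listed.

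*Il6* had the lowest level of the 5 ligands in Tyr-H cells. Tyr-L libraries 1 and 2 held 0.0487 and 0.0892 FPKM, Tyr-L library 3 had no entry for it, and Tyr-H libraries 1 to 3 held 0.195, 0.185 and 0.381 FPKM. These values stand for at most 4.4 fragments in a Tyr-L library and for 9.0 to 17.3 in a Tyr-H library. Tyr-H library 3 held about as much as the other Tyr-H libraries together. The log2 fold change was 1.28 ± 0.37 (SE), with 2.69 when 0.01 FPKM was added and 0.26 when 1 FPKM was added. Without Tyr-H library 3 it was 1.04 and no longer called. *Il6* lies on chromosome 5 from 30013114 to 30019981.

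Summed over the 5 ligands, the level was 1.17, 1.01 and 1.19 FPKM for Tyr-L and 6.17, 6.44 and 7.34 FPKM for Tyr-H libraries 1 to 3. *Lif* made up 57.5% to 72.9% of this sum in Tyr-L and 51.4% to 55.3% in Tyr-H libraries. In the fit across all genes, 5 of the 9 members tested were called higher, all of them ligands, and none lower, where 2.96% of all tested genes were called higher and 5.78% lower. The groups did not overlap in 7 of these 9 members and in 64.0% of all tested genes, with Tyr-H higher in 5 members (20.2% of all tested genes) and lower in 2, *Il6st* and *Lifr* (43.8%). Since the members were known from this comparison, nothing is read from these counts.

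**Figure D1:**
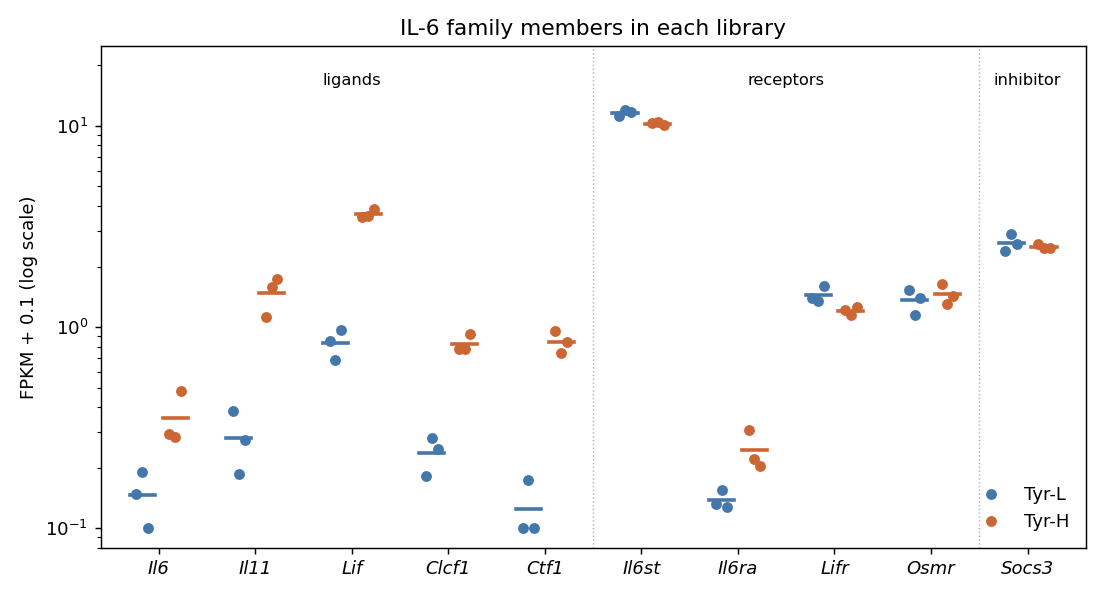
Level of each member as FPKM + 0.1 on a log axis, with 1 point per library (Tyr-L blue, Tyr-H orange) and a line at the mean of each group of 3. The 5 ligand genes are separated between the groups, *Il6st* sits near 10 to 12 FPKM in all libraries, and *Osmr* and *Socs3* overlap.

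The shared receptor chain gp130, encoded on chromosome 13 from 112464070 to 112510086, had the highest level of all members. *Il6st* measured 11.0, 11.9 and 11.6 FPKM in Tyr-L libraries 1 to 3 and 10.2, 10.3 and 9.99 FPKM in Tyr-H libraries 1 to 3. The groups did not overlap, yet the gap was small, with a log2 fold change of -0.17 ± 0.05 (SE), close to the median of -0.15 of all tested genes, and after median ratio scaling it was -0.02. *Lifr* (chromosome 15, 7090614 to 7197489), the LIF receptor chain, was at 1.30, 1.25 and 1.50 FPKM in the Tyr-L and 1.12, 1.04 and 1.16 FPKM in the Tyr-H libraries. Its groups did not overlap either, and its log2 fold change of -0.26 ± 0.14 (SE) had a 95% interval from -0.58 to 0.05. After quantile normalization it was -0.06.

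*Osmr*, which lies close by on chromosome 15 from 6813577 to 6874969, measured 1.43, 1.05 and 1.29 FPKM in Tyr-L libraries 1 to 3 and 1.53, 1.21 and 1.33 FPKM in Tyr-H libraries 1 to 3. The groups overlapped, with a log2 fold change of 0.11 ± 0.16 (SE, 95% interval -0.26 to 0.47), and the sign turned to -0.01 without Tyr-L library 2. *Il6ra* (chromosome 3, 89864059 to 89913196) was barely detected. It was at 0.0314, 0.0549 and 0.0271 FPKM in the Tyr-L and 0.209, 0.122 and 0.103 FPKM in Tyr-H libraries 1 to 3, at most 10.0 fragments in the former and 17.3 to 35.6 in the latter. The groups did not overlap, and without the filter on low values its log2 fold change was 0.81 ± 0.22 (SE), under the fold threshold. The files give it the same locus as *Gm42809*, an antisense gene listed only in the Tyr-H libraries, at 0.0284 to 0.0576 FPKM.

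The feedback inhibitor *Socs3*, a gene that STAT3 induces and that lies on chromosome 11 from 117966079 to 117970047, measured 2.29, 2.79 and 2.48 FPKM in Tyr-L libraries 1 to 3 and 2.47, 2.37 and 2.38 FPKM in Tyr-H libraries 1 to 3. The Tyr-H values lay within the Tyr-L range. The log2 fold change was -0.06 ± 0.11 (SE, 95% interval -0.30 to 0.18), and its sign depended on the scaling, with 0.09 after median ratio scaling and 0.13 after quantile normalization.

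The order of the levels therefore differed between the groups. FPKM is a value per length, so members can be set beside each other. In Tyr-L cells the order from the highest mean was *Il6st*, *Socs3*, *Lifr*, *Osmr*, *Lif*, *Il11*, *Clcf1*, *Il6*, *Il6ra* and *Ctf1*. The libraries of *Lifr* and *Osmr* overlapped there, as did all neighbours from *Il11* down. In Tyr-H cells *Lif* stood second, above *Socs3*, and *Il11* came next, beside *Osmr*, whose range it overlapped. *Lifr*, *Ctf1*, *Clcf1*, *Il6* and *Il6ra* followed, and *Ctf1* with *Clcf1* and *Il6* with *Il6ra* were the neighbours that overlapped. The level of *Lif* was 0.464 to 0.580 times that of *Lifr* in the Tyr-L libraries and 3.04 to 3.31 times in the Tyr-H libraries. The 4 receptor genes together summed to 13.8 to 14.4 FPKM in Tyr-L and 12.6 to 13.1 FPKM in Tyr-H libraries, of which *Il6st* made up 78.2% to 83.4%. The ligand sum was 0.0853 to 0.106 times the level of *Il6st* in Tyr-L and 0.603 to 0.735 times in Tyr-H libraries. Even in Tyr-H cells, the mRNA of the shared chain thus exceeded that of all 5 ligands together in every library.

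Among the other receptors, *Il11ra1*, the alpha chain for interleukin-11, was at 18.7 to 20.7 FPKM in Tyr-L and 20.3 to 22.7 FPKM in Tyr-H libraries, above *Il6st*, with a log2 fold change of 0.14 ± 0.06 (SE, limma adjusted p = 0.071). The scaling decided whether the p passed, with 0.29 (limma adjusted p = 0.003) under median ratio scaling, 0.26 (0.0058) under quantile normalization and 0.04 (0.58) with each library rescaled to the same total. *Il11ra1* lies over several other annotated genes and has a near copy, *Il11ra2*, so its values are uncertain. *Cntfr*, the alpha chain to which CLCF1 and ciliary neurotrophic factor bind, was at 28.6 to 30.6 FPKM in Tyr-L and 19.5 to 22.6 FPKM in Tyr-H libraries. Its log2 fold change was -0.50 ± 0.06 (SE, limma adjusted p = 9.1e-05), below the Tyr-L libraries without overlap but short of the 2-fold threshold. *Il27ra* and *Il31ra* had means under 0.1 FPKM and were not tested.

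Of the 7 other ligand genes, *Il27*, *Il31* and *Ctf2* were never listed, and *Osm* and *Ebi3* were too low to test. *Cntf*, a ligand of *Cntfr*, was at 0.391, 0.639 and 1.06 FPKM in Tyr-L and 0.376 to 0.408 FPKM in Tyr-H libraries (log2 fold change -0.62 ± 0.30 SE, limma adjusted p = 0.11), and overlaps *Zfp91*. This value turned on single libraries, with -0.30 (limma adjusted p = 0.37) without Tyr-L library 3 and -0.92 (limma adjusted p = 0.017) without Tyr-L library 1. No gene of these 2 lists was called, against 8.75% of all tested genes.

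**Figure D2:**
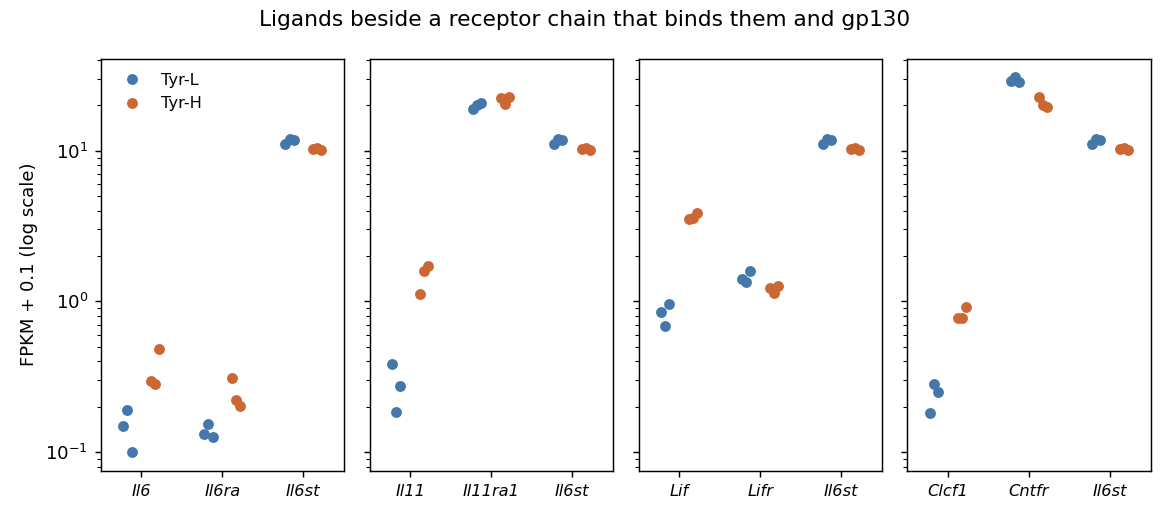
FPKM + 0.1 on a log axis for 4 ligands, each beside a receptor chain that binds it and beside *Il6st*, with 1 point per library (Tyr-L blue, Tyr-H orange). The ligands are higher in Tyr-H libraries, *Il11ra1* stays near 20 FPKM, *Cntfr* is lower in Tyr-H libraries, and *Il6* and *Il6ra* lie near the lower limit of detection.

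Of 12 genes for kinases, STATs and adaptors of the signaling chain, all were tested and none was called. An adjusted p of at most 0.05, whatever the fold, was reached by 8 of the 12, as by 57.8% of all tested genes, with 2 on the higher side and 6 on the lower. *Stat3*, the main effector, was at 24.0 to 25.9 FPKM in Tyr-L and 23.7 to 28.8 FPKM in Tyr-H libraries, with a log2 fold change of 0.06 ± 0.07 (SE, 95% interval -0.10 to 0.21, limma adjusted p = 0.49). It depended on the scaling, with 0.21 (limma adjusted p = 0.02) under median ratio scaling, 0.17 (0.044) under quantile normalization and -0.04 (0.67) with each library rescaled to the same total. *Jak1*, the main kinase of gp130, was at 30.1 to 33.0 FPKM in Tyr-L and 32.8 to 35.5 FPKM in Tyr-H libraries, with a log2 fold change of 0.12 ± 0.05 (SE, limma adjusted p = 0.049), which became 0.28 after median ratio scaling and 0.03 (limma adjusted p = 0.69) with libraries rescaled to the same total. *Jak2*, *Tyk2*, *Stat5a*, *Gab1*, *Shc1* and *Sos1* had an adjusted p of at most 0.05 on the lower side, down to -0.65 for *Gab1*, an adaptor of the ERK branch. *Jak2*, at -0.31 (limma adjusted p = 0.013), was at -0.16 (0.15) under median ratio scaling and -0.14 (0.17) with quantiles matched. *Stat3* and *Stat5a* overlap each other at their ends on opposite strands.

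The 14 other negative regulators, all tested, had log2 fold changes from -0.62 to 0.53 with a median of -0.24, and none was called, against 8.75% of all tested genes. An adjusted p of at most 0.05 was reached by 2 on the higher side and 7 on the lower. *Socs1*, a relative of *Socs3*, was at 0.371, 0.580 and 0.929 FPKM in Tyr-L and 0.796, 1.00 and 0.898 FPKM in Tyr-H libraries, which overlapped. *Pias3*, whose product binds STAT3, had the lowest log2 fold change of the list, at -0.62. It was at 6.10 to 6.60 FPKM in Tyr-L and 3.96 to 4.30 FPKM in Tyr-H libraries. Among the 4 genes of receptor shedding, the cutting of receptor ectodomains from the cell surface, the proteases *Adam10* and *Adam17* had log2 fold changes of -0.50 and -0.40 (standard errors 0.05 and 0.04). *Rhbdf2*, which helps *Adam17* reach the surface, was at 3.11 to 3.47 FPKM in Tyr-L and 5.37 to 6.29 FPKM in Tyr-H libraries, a log2 fold change of 0.80 ± 0.09 (SE), also under the threshold.

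**Figure D3:**
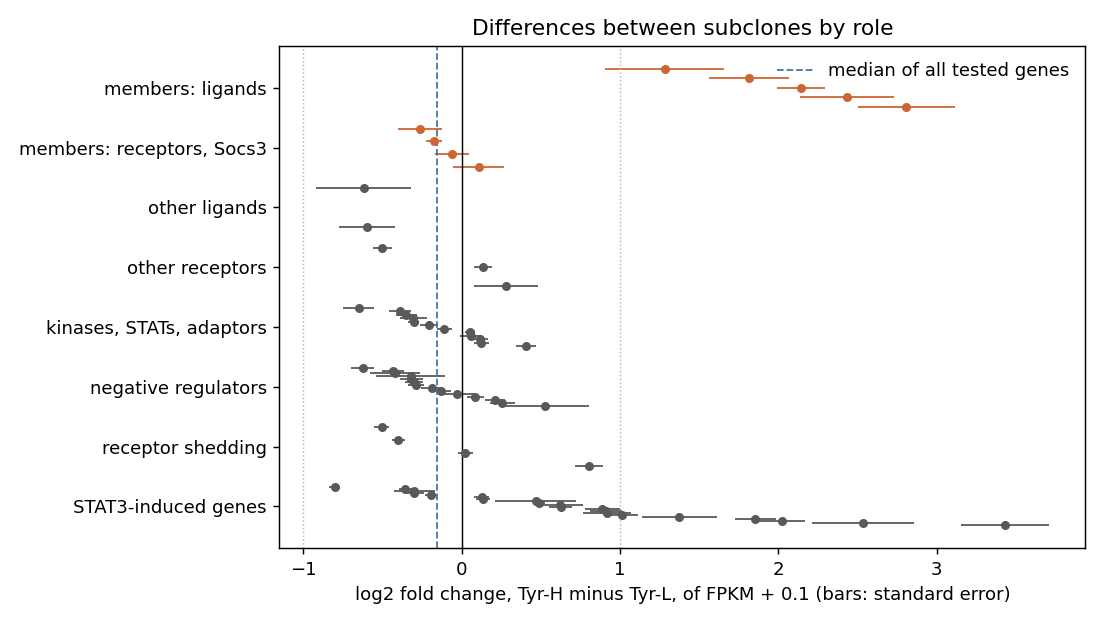
Log2 fold change of FPKM + 0.1, Tyr-H minus Tyr-L, for the 9 members tested (orange) and the tested genes of 6 pathway lists (grey), with standard errors. The dashed line is the median of all tested genes at -0.15 and the dotted lines are the 2-fold thresholds. Beyond the upper threshold lie the 5 ligands and 6 genes that STAT3 is known to induce.

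A further list held 27 genes known to be induced by STAT3 in at least some cell types. Of these, 20 were tested, and 6 were called higher in Tyr-H cells, where 2.96% of all tested genes were. None was called lower at the 2-fold threshold. Whatever the fold, an adjusted p of at most 0.05 was reached by 14 on the higher side and by 4 on the lower, and by 57.8% of all tested genes in either direction. The 4 were *Mcl1*, *Birc5*, *Myc* and *Hif1a*. Over all tested genes, 2570 passed on the higher side and 5722 on the lower. The median log2 fold change of the 20 was 0.62, against -0.15 for all tested genes. *Bcl3*, *Lcn2*, *Icam1* and *Cebpb* are known to respond to NF-kappaB as well, and which factor acts on them was not measured. The list, like the members, was drawn up with results of these libraries known. Nothing is therefore read from these counts, the median or the p-values of its genes, which are given as a description.

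*Bcl3* encodes an unusual IkappaB protein that works with NF-kappaB in the nucleus. It rose from 0.609, 0.784 and 0.862 FPKM to 3.43, 3.27 and 3.31 FPKM, a log2 fold change of 2.02 ± 0.14 (SE, limma adjusted p = 4.3e-06). *Cebpb*, a transcription factor of the acute phase response, rose from 4.49, 5.63 and 4.48 FPKM to 15.0, 17.8 and 21.1 FPKM (log2 fold change 1.86 ± 0.13 SE, limma adjusted p = 3.7e-06). Both had their lowest Tyr-H library far above their highest Tyr-L library, and both overlap other annotated genes on the opposite strand.

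*Lcn2*, an iron-carrier protein of the acute phase, had no entry in the tables of Tyr-L cells and measured 0.708, 1.14 and 1.15 FPKM in Tyr-H libraries 1 to 3. *Icam1*, an adhesion molecule for leukocytes, had no entry in Tyr-L library 1, reached 0.0325 and 0.0208 FPKM in Tyr-L libraries 2 and 3, and rose to 0.449, 0.472 and 0.889 FPKM in Tyr-H libraries 1 to 3. The annotation places *Gm47079* over *Icam1* on the opposite strand. Both *Lcn2* and *Icam1* passed the filter on a mean of 0.1 FPKM only through the Tyr-H libraries, so no p-value is given for them. *Serpina3n*, an acute-phase protease inhibitor with close paralogs, rose from 0.243, 0.165 and 0.314 FPKM to 0.852, 0.789 and 0.676 FPKM (log2 fold change 1.38 ± 0.24 SE, limma adjusted p = 0.00085). These 3 genes were near or below detection in Tyr-L cells and still under 1.2 FPKM in Tyr-H cells, and none of them was called when 1 FPKM was added in place of 0.1.

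*Junb*, a subunit of AP-1, overlaps *Prdx2* on the opposite strand and lay at the threshold. It was at 4.63, 4.77 and 4.92 FPKM in Tyr-L and 8.38, 9.65 and 11.3 FPKM in Tyr-H libraries, a log2 fold change of 1.01 ± 0.10 (SE, limma adjusted p = 3.2e-05). The call was lost without Tyr-L library 1, at 0.99, and without Tyr-H library 3, at 0.90, and likewise when 1 FPKM was added or each library was rescaled to the same total (0.89 and 0.92). *Bcl6*, *Cebpd* and *Vegfa* lay just under the threshold, with 0.92, 0.89 and 0.91, and were called after median ratio scaling or quantile normalization, either of which gave 9 calls in the pathway lists together. *Mcl1*, a survival gene, lay on the lower side, with 70.0 to 74.6 FPKM in Tyr-L and 41.3 to 42.1 FPKM in Tyr-H libraries (log2 fold change -0.80, standard error 0.04, limma adjusted p = 3.8e-07). The acute-phase genes *Lbp*, *Hp*, *Fgg* and *Saa3* were too low to test, as was *Mmp9*, and *Il10* and *Twist1* were never listed.

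**Figure D4:**
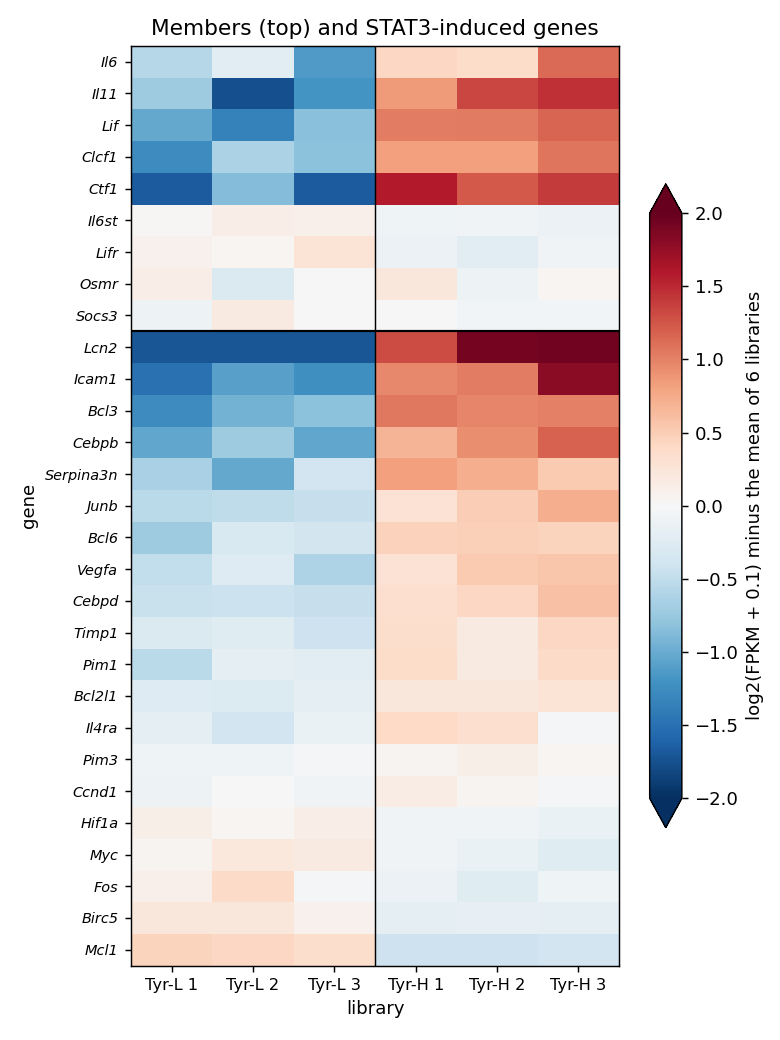
Deviation of log2(FPKM + 0.1) from the mean of the 6 libraries for the 9 members tested (above the line) and the 20 tested genes of the STAT3 list, with libraries in columns (Tyr-L 1 to 3, then Tyr-H 1 to 3) and red for higher. The 5 ligands and the genes from *Lcn2* to *Junb* are red in all Tyr-H columns, and the rows of *Il6st*, *Lifr*, *Osmr* and *Socs3* stay pale.

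Across the 6 libraries, the 5 genes averaging at least 1 FPKM whose pattern was most like that of *Lif* were *Tmco4*, *Slc30a4*, *Oxnad1*, *Itpk1* and *Kctd12*, with Pearson correlations of 0.9993 to 0.9979 on log2(FPKM + 0.1). Their log2 fold changes were between 0.46 and 1.40, smaller than that of *Lif*. With 2 groups of 3 libraries genes that separate the groups cleanly correlate highly with each other, and 964 of 11025 genes (8.74%) had a correlation of at least 0.95.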

How the data were processed

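RNA of 3 Tyr-L and 3 Tyr-H libraries of B16 cells was sequenced as mRNA libraries. The deposited tables hold 1 FPKM value per gene and library, made by the authors. The submitters' processing notes name Trimmomatic, HISAT2 and GRCm38.p6, while the program that computed FPKM, its annotation and its strand setting are not given in the sources used here. Reads of overlapping genes on opposite strands may therefore not be told apart. A gene missing from a table was set to 0.

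The 10 members were matched by gene name. Genes averaging 0.1 FPKM or more were fitted as log2(FPKM + 0.1) with limma 3.58.1 (R 4.3.3, eBayes, variance trend on, p-values adjusted by Benjamini-Hochberg across 14336 genes), after tests on simulated data. A call needed an adjusted p of at most 0.05 and a log2 fold change of at least 1 in size. The added 0.1 FPKM makes fold changes of low genes too small. Fragments behind a value were estimated from the lowest FPKM steps and the longest transcript in GENCODE M21, and are upper estimates. The members and gene lists were chosen with earlier results of these data known. Members therefore carry no p-value, and the counts and p-values of the lists are given as a description. Genes named besides members were all called genes of the lists, examples where a list needed one, *Tyr*, markers, overlapping genes and the 5 genes most like *Lif*. Alternatives were other pseudocounts, filters, scalings and fold thresholds, no variance trend, each library left out, and the replicate number as a block. Replicate numbers did not pair the libraries, since same-numbered libraries deviated with correlations of 0.022, 0.013 and -0.083. Python 3.11.15, pandas 2.3.3 and matplotlib 3.10.9 were used for tables and figures. Results for some genes of the lists are not reported here.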

Additional observations from a re-analysis of the deposited data

How the results depend on the processing

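The 5 ligands were higher in Tyr-H libraries under every alternative run in which they were tested. Adding 1 FPKM in place of 0.1 left 185 genes called higher and 203 lower, with 2 members (*Lif* at 1.39 and *Il11* at 1.00) and 2 pathway genes. A filter at a mean of 1 FPKM left 247 and 393 calls, 1 member and 3 pathway genes, since fewer genes were tested. Quantile normalization gave 508 lower calls, and the cause was not tested. Without a fold threshold 2570 genes were called higher and 5722 lower, with 1 member lower (*Il6st*) and 19 pathway genes higher and 21 lower, as fewer conditions applied. The sign of *Socs3* turned to 0.087 under median ratio scaling and 0.13 under quantile normalization, and that of *Stat3* to -0.036 with each library rescaled to the same total, while *Stat3* was at 0.21 and 0.17 under the other scalings. Over the fits that each dropped 1 library, log2 fold changes ranged from -0.0088 to 0.20 for *Osmr*, from -0.12 to 0.012 for *Socs3* and from -0.019 to 0.12 for *Stat3*, and the number of ligands called was 4 or 5. With the replicate number as a block (replicate block), 430 genes were called higher and 828 lower, with 5 members and 6 pathway genes higher. Depth limits *Il6*, *Il11*, *Clcf1*, *Ctf1* and *Il6ra*, which rest on few fragments in Tyr-L libraries.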
